A study of Mus musculus with 33 samples.

Results

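The hippocampus of Tg2576 mice dosed with TO901317 was compared with that of wild-type littermates dosed with vehicle. The comparison takes the arrays whose labels name the agonist (11 Tg2576 animals) and those labelled wild type (11 animals), 22 of the 33 arrays in all, 1 array per animal. The Tg2576 animals were heterozygous for a transgene in which the prion promoter drives human APP bearing the Swedish mutation of familial Alzheimer's disease. All were kept on a mixed SJL × C57BL/6J background; the labels give the transgenic animals as male, and the age as 20 weeks in the design text and 5 months in the protocol. The treated animals received TO901317 by oral gavage at 50 mg per kg once a day, and the wild-type animals the Tween 80 and sodium carboxymethylcellulose vehicle. Dosing lasted 7 days by the design text and 5 days by the treatment protocol, with the animals killed and perfused 1 hour after the last dose. Genotype and drug differ together between these groups. The 11 Tg2576 animals given vehicle are therefore set beside them for the genes that passed and are described singly, and wild-type animals given the drug were not analysed here. RNA of the right hippocampus was hybridised to Affymetrix MOE430 2.0 arrays, and the deposited values are MAS5 signals on a linear scale.

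TO901317 is a synthetic compound that activates the liver X receptors, nuclear receptors that sense oxidised cholesterol and bind DNA as partners of the retinoid X receptors. In the brain, where cholesterol is made locally, their target genes include transporters that load cholesterol onto apolipoprotein particles, above all Abca1 and Abcg1, the apolipoproteins themselves, and Srebf1, the transcription factor that drives fatty acid synthesis. Cholesterol synthesis is controlled separately, by the related factor SREBP2, which is released when membrane sterol is low.

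The receptors bind paired half-sites, and the elements known in Abca1 and Srebf1 share the letters GGTTACT, then any 2 bases, then CGGTCA. These letters were searched on both strands of the 250 bases before each RefSeq gene start (GRCm38.p6), a search chosen after the data were seen. In all, 3 of 32851 windows (0.00913%) hold them, those of Abca1, Srebf1 and Fasn, the fatty acid synthase gene. Since the letters were taken from Abca1 and Srebf1, their matches there were fixed by the choice and support nothing. The stretches are shown because Abca1 and Srebf1 passed the test and Fasn, which did not, holds the only other match. Each is read on the gene's own strand, with the element in capitals in its reverse-complement form.

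Abca1, chr4:53159928-53159982, minus strand, element 67 to 53 bases before the start: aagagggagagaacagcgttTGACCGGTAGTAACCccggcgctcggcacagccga

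Srebf1, chr11:60210619-60210673, minus strand, element 182 to 168 bases before 1 of 3 listed starts: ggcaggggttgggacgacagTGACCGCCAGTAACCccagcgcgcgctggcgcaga

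Fasn, chr11:120824738-120824792, minus strand, element 225 to 211 bases before the start: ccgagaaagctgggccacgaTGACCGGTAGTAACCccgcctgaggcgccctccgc

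A looser search for 2 AGGTCA half-sites with 4 bases between them and at most 1 mismatch in each, on both strands, matched 1.48% of all windows. Counted by gene, it matched 1.28% of the genes tested that have a window. It matched 0 of the 11 genes that were higher and 0 of the 24 that were lower in treated Tg2576 and have a window in the table. Sets this small cannot show a difference from such a share. The sterol regulatory element, searched as TCAC, any base, CCAC, was in 1.05% of windows and 1.28% of the genes tested that have a window. Of 17 fatty acid synthesis genes with a window, 1 held it, Mlxipl. Among 14 cholesterol synthesis genes with a window the element was found in 1, Hmgcs1, whose product makes HMG-CoA for the sterol pathway. Its stretch is shown here with the element in capitals.

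Hmgcs1, chr13:119690194-119690242, plus strand, element 137 to 129 bases before the start: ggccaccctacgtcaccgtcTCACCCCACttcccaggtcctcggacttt

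These matches describe letters in the windows and say nothing of binding in these animals.

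The arrays had been scaled to 1 trimmed mean (99.97 on every array), with medians between 19.4 and 28.9. All 13 CA pyramidal and 11 dentate granule neuron markers lay above the filter on low signals, as did 13 of 14 thalamus and striatum markers. Choroid plexus markers varied widely within every group. Their summed signal ran from 606 through a median of 1726 to 12990 in wild type. It ran from 392 through 1655 to 8586 in vehicle Tg2576 and from 1169 through 3252 to 9806 in treated Tg2576. The mean log2 sum was 0.776 higher in treated Tg2576 than in wild type. Among the vehicle Tg2576 animals, replicates 3 and 4 stood apart in the 3' to 5' signal of Gapdh, and leaving both out gave 47 genes past the limit instead of 46. The treated and wild-type means of the brightest App probe set were 3844 ± 281 and 3790 ± 401 (SD, n = 11 each), 0.024 apart on the log2 scale. A second App probe set was 0.14 higher with an adjusted p of 0.464, and whether either reads the human transcript was not tested.

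Treated Tg2576 differed from wild type in few genes and by modest amounts. Apod, Apoc1 and Srebf1 were the widest rises and Fabp7, Mtcp1 and Dio2 the widest falls. Of 12765 genes tested, 46 passed (0.36%; limma, Benjamini-Hochberg adjusted p under 0.05). These were 18 higher (0.141%) and 28 lower (0.219%). Differences are on the scale of log2(signal + 16), which understates those of dim genes. None of the 46 reached a 2-fold ratio of mean signals, the median size was 0.35 and the smallest 0.17, while the median over all genes was -0.0026. At an unadjusted p under 0.05 (limma), 1201 genes lay past the limit, where 638 would be expected if no gene differed. The call count depended on the arrays: it ran from 22 without wild-type replicate 9 to 50 without wild-type replicate 5. Centring each array on its median gave 20 genes, 11 higher and 9 lower, so the larger share of falls did not hold under that scaling.

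**Figure D1:**
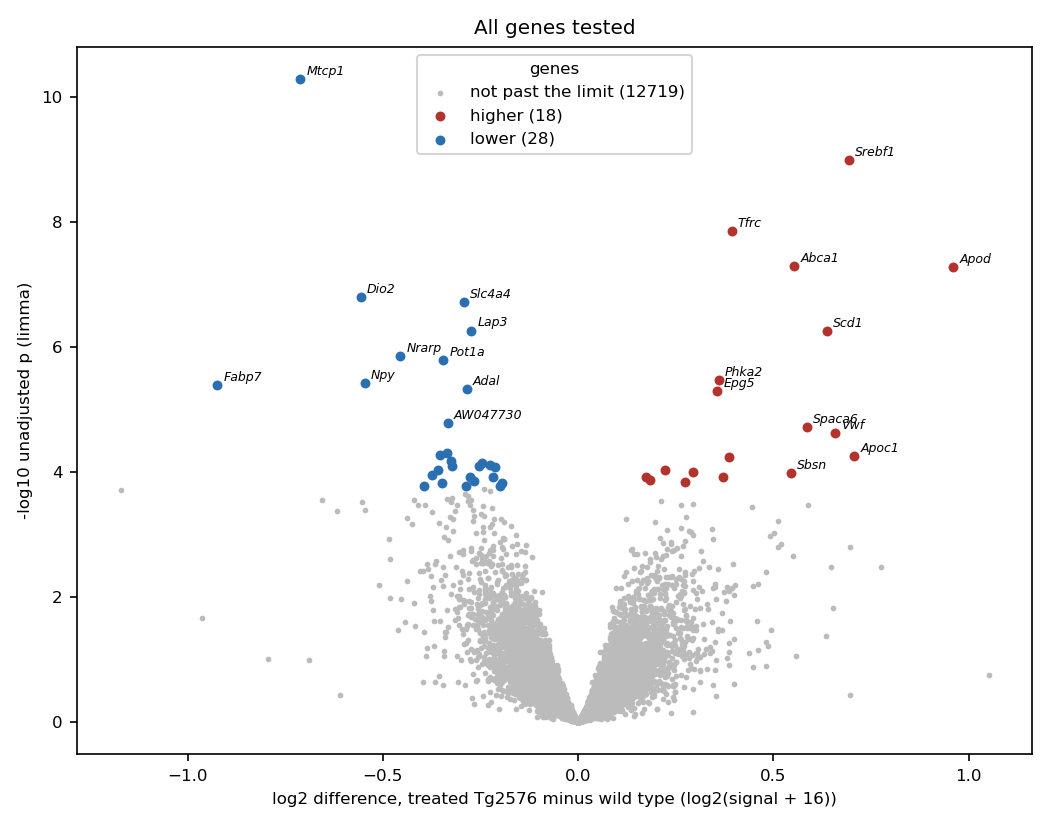
Each of the 12765 genes is placed by its log2 difference, treated Tg2576 minus wild type (x axis, log2(signal + 16)), and by the -log10 of its unadjusted p (y axis). The 18 higher genes are red and the 28 lower blue; Mtcp1 and Srebf1 have the smallest p, and Apod and Fabp7 the widest differences among them.

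In 4 genes (0.0313% of those tested) no treated animal overlapped a wild-type animal: Tfrc lay above and Fabp7, Dio2 and Mtcp1 below. In bulk tissue, fewer cells of a type and less RNA per cell cannot be told apart. This holds for every fall described here.

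Among the direct targets of the receptors, Abca1, the transporter that moves cholesterol out of cells onto apolipoproteins, rose. Its signal ran from 269 through a median of 320.5 to 448 in wild type, and from 336 through 485 to 676 in treated Tg2576. All 11 treated animals exceeded the wild-type median and 8 exceeded the wild-type maximum. The log2 difference was 0.55 (SE 0.081, adjusted p = 0.000137). Vehicle Tg2576 read 311 ± 24.0 (SD, n = 11), which differed from wild type by -0.053, and the treated animals lay 0.61 above it (adjusted p = 5.9e-05). A second, dimmer Abca1 probe set passed by itself over all probe sets (0.64, adjusted p = 0.0124) and another read 0.53 higher (adjusted p = 0.0832).

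Apoc1, a small apolipoprotein of the cluster that also holds Apoe, rose: its mean was 33.1 ± 14.2 in wild type and 63.0 ± 19.2 in treated Tg2576 (SD, n = 11 each), 0.71 apart on the log2 scale (SE 0.155, adjusted p = 0.0324). Its treated animals ran from 28.6 through 63.2 to 102 against 6.95 through 30.2 to 57.6 in wild type, so the groups overlapped, with 8 treated animals above all wild-type ones. The call was lost without wild-type replicate 4, 6 or 9 and without treated replicate 1, 2, 5, 6 or 9 (adjusted p up to 0.0613). It was also lost in 5 of 15 other alternatives, among them a pseudocount of 1 (adjusted p = 0.0517), only the 22 arrays (adjusted p = 0.0545) and the astrocyte, oligodendrocyte, dentate and CA covariates (adjusted p = 0.614). Vehicle Tg2576 read 34.9 ± 10.0, a difference of 0.084 from wild type.

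Abcg1, which passes cholesterol to larger lipoprotein particles, did not pass against wild type. It read 305 ± 31.9 in wild type, 266 ± 26.7 in vehicle Tg2576 and 361 ± 42.8 in treated Tg2576 (SD, n = 11 each). The treated-to-wild-type difference was 0.23 (95% interval 0.10 to 0.36, adjusted p = 0.108), against 0.42 over vehicle Tg2576 (adjusted p = 0.00036). Vehicle Tg2576 differed from wild type by -0.19 (adjusted p = 0.188). With the probe sets of a gene averaged, Abcg1 passed against wild type (0.23, adjusted p = 0.0232).

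Apoe, the main brain apolipoprotein, read 4558 ± 610 in wild type, 4095 ± 445 in vehicle Tg2576 and 4908 ± 722 in treated Tg2576 (SD, n = 11 each). Its difference from wild type was 0.10 (95% interval -0.045 to 0.25, adjusted p = 0.722), and 7 of 11 treated animals lay above the wild-type median. Of the 14 tested receptors and targets outside fatty acid synthesis, 2 rose, 0 fell and 12 did not pass. Their median was 0.093 against wild type, beside -0.0026 over all genes, where vehicle Tg2576 had -0.050. Nr1h3, which encodes the alpha receptor, was dim and read 27.3 ± 5.62 in wild type and 25.7 ± 5.57 in treated Tg2576, with an interval of the difference from -0.25 to 0.14. Lpl, lipoprotein lipase, read 0.25 higher with an interval from -0.18 to 0.68.

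**Figure D2:**
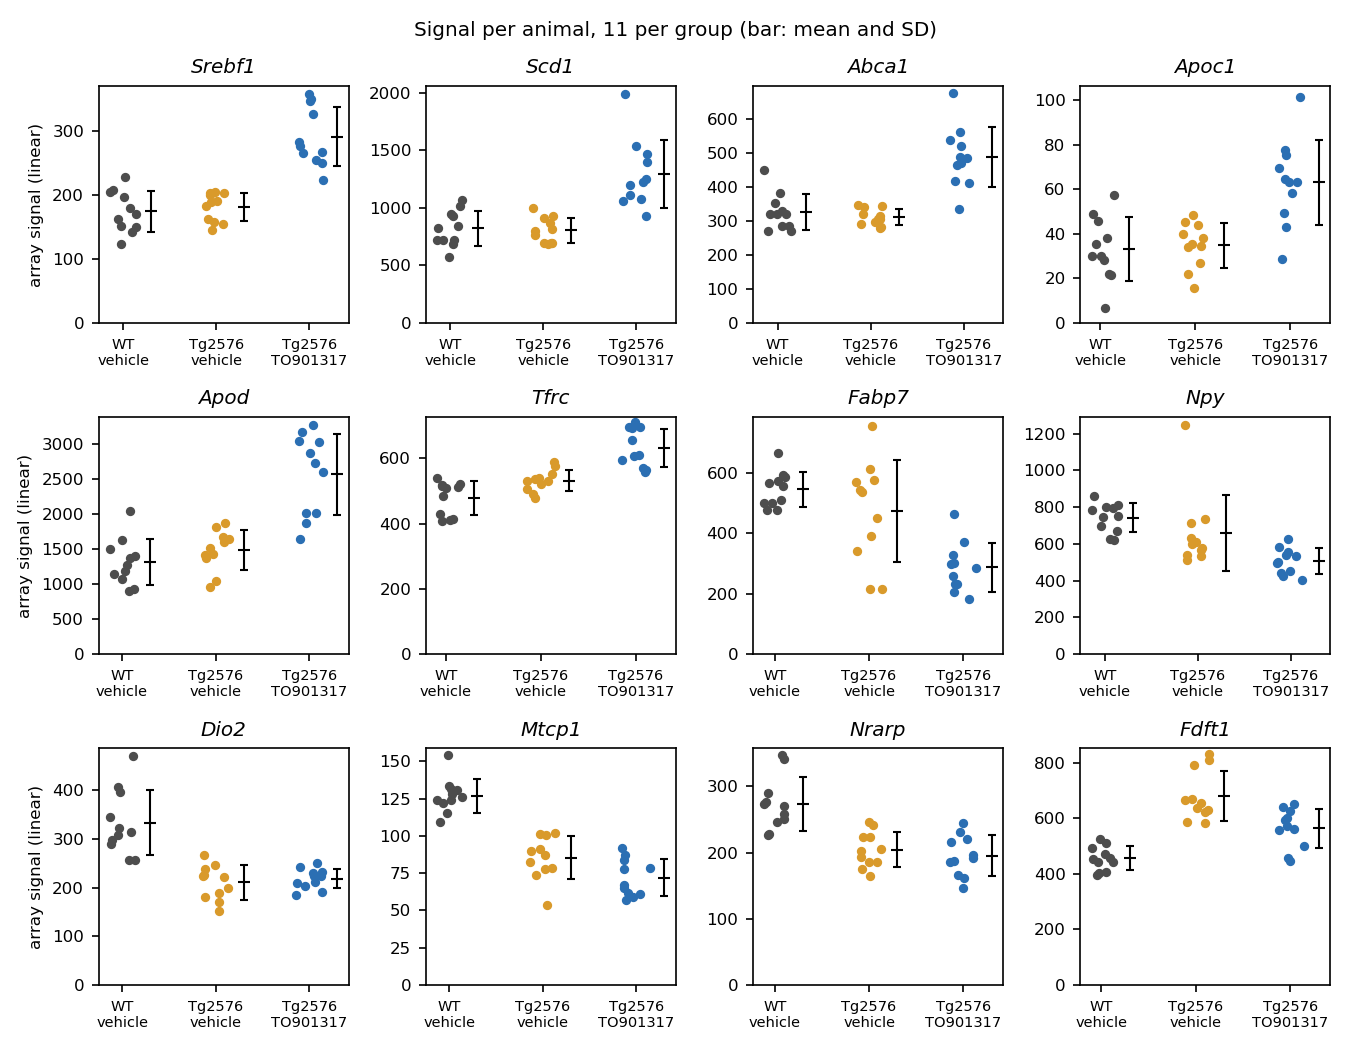
Array signal (y axis, linear, from 0) of 12 genes in each of 11 wild-type, 11 vehicle Tg2576 and 11 treated Tg2576 animals, with the mean and SD beside the points. Srebf1, Scd1, Abca1, Apoc1 and Apod have their highest means in the treated group, whereas the Dio2, Mtcp1 and Nrarp means are below wild type in both Tg2576 groups and Fdft1 is highest in vehicle Tg2576.

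In fatty acid synthesis, 2 of 20 tested genes rose and 0 fell. Srebf1 ran from 124 through 169 to 227 in wild type, from 146 through 188 to 204 in vehicle Tg2576 and from 222 through 277 to 358 in treated Tg2576. Of the treated animals, 10 exceeded the wild-type maximum and the remaining one was just under it. The log2 difference was 0.69 (SE 0.086, adjusted p = 6.5e-06), while vehicle Tg2576 differed from wild type by 0.063.

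Scd1, the desaturase that makes monounsaturated fatty acids and an established target of both the receptors and SREBP1c, rose alongside it. It ran from 574 through 826 to 1067 in wild type and from 929 through 1224 to 1989 in treated Tg2576, with 9 treated animals above all wild-type ones. The difference was 0.64 (SE 0.104, adjusted p = 0.000804), and vehicle Tg2576 differed by -0.019. Treated replicate 1 was the highest animal in both Srebf1 (358) and Scd1 (1989).

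The enzymes that build the fatty acid chain did not pass. Fasn, whose promoter holds the element shown, read 498 ± 47.8 in wild type and 566 ± 36.8 in treated Tg2576 (95% interval of the log2 difference 0.067 to 0.30, adjusted p = 0.197). Acaca, which makes its malonyl-CoA substrate, read 196 ± 20.7 and 214 ± 24.1 (interval -0.022 to 0.25). Elovl6, which lengthens palmitate, read lower, 446 ± 30 against 390.1 ± 44.7 (95% interval -0.30 to -0.082, adjusted p = 0.13). The list's median was 0.045 beside -0.0026 over all genes.

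In cholesterol synthesis, 1 of 17 tested genes rose and 0 fell, and here the group without drug stood further from wild type. Fdft1, squalene synthase, ran from 396 through 454 to 526 in wild type, from 584 through 657 to 832 in vehicle Tg2576 and from 446 through 572 to 651 in treated Tg2576. Vehicle Tg2576 did not overlap wild type, whereas 8 of 11 treated animals lay above all wild-type ones. The log2 difference was 0.30 for treated Tg2576 (SE 0.068, adjusted p = 0.0400) and 0.56 for vehicle Tg2576 (adjusted p = 8.13e-06), both against wild type. Treated lay below vehicle by -0.26, which did not pass (adjusted p = 0.0786 in limma). The treated call was fragile: it held in 19 of 33 fits that left out 1 array, the adjusted p reaching 0.0762. Arrays whose removal ended it were wild-type replicates 1, 2, 3, 6, 8, 10 and 11 and treated replicates 1, 2, 3, 4, 5, 8 and 11. A second Fdft1 probe set of similar signal read 0.28 higher in treated Tg2576 than in wild type. In limma over all probe sets it passed (adjusted p = 0.0397), whereas the probe set described above did not (adjusted p = 0.0832).

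Fdps, which makes farnesyl diphosphate, read 342 ± 38.7 in wild type, 486 ± 63.9 in vehicle Tg2576 and 406 ± 44.6 in treated Tg2576. Its treated difference of 0.24 did not pass (adjusted p = 0.137), while its vehicle difference was 0.48 (adjusted p = 8.98e-05). Treated Fdps lay below vehicle by -0.25, which did not pass (adjusted p = 0.111 in limma). Sqle, which epoxidises squalene, read 408 ± 46.0, 578 ± 72.1 and 448 ± 56.5 in that order. It lay 0.13 from wild type in treated animals (interval -0.016 to 0.27), 0.49 in vehicle animals (adjusted p = 0.000125), and treated lay below vehicle by -0.36 (adjusted p = 0.0106).

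Hmgcs1, whose promoter holds the sterol regulatory element, read 2057 ± 159 in wild type, 2499 ± 165 in vehicle Tg2576 and 2099 ± 191 in treated Tg2576. The treated interval against wild type was -0.071 to 0.12, and treated lay below vehicle by -0.25 (adjusted p = 0.0096). Hsd17b7, a late sterol enzyme, read 121 ± 6.17, 152 ± 13.9 and 128 ± 12.0, with a treated interval of -0.036 to 0.17. Its treated animals lay below vehicle by -0.22 (adjusted p = 0.0377 in limma).

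At the other end, Idi1, the isomerase of the isoprenoid unit, read -0.14 from wild type in treated animals (adjusted p = 0.497) and 0.23 in vehicle animals (adjusted p = 0.123). Cyp51, lanosterol demethylase, read -0.15 in treated animals (adjusted p = 0.391) and 0.11 in vehicle animals (adjusted p = 0.488). Treated lay below vehicle in both, by -0.37 in Idi1 (adjusted p = 0.0048 in limma) and -0.26 in Cyp51 (adjusted p = 0.0459). Sc5d, a late desaturase, read 195 ± 20.2 in wild type and 166 ± 31.2 in treated Tg2576 (interval -0.41 to -0.044, adjusted p = 0.383). Over the 17 genes the median was 0.043 for treated Tg2576 and 0.24 for vehicle Tg2576, each against wild type, with all-gene medians of -0.0026 and 0.0066. The lowest animal of all in the mean level of this list was treated replicate 6, at -0.41 from the overall mean.

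None of 9 tested sterol-sensing and uptake genes passed, with a median of 0.11 and 8 of 9 above 0, beside 48.7% of all genes. Insig1, which holds SREBP in the endoplasmic reticulum, read 180 ± 24.2 in wild type, 226 ± 27.0 in vehicle Tg2576 and 214 ± 23.4 in treated Tg2576. Its difference was 0.24 in treated animals (adjusted p = 0.144) and 0.31 in vehicle animals (adjusted p = 0.0365).

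**Figure D3:**
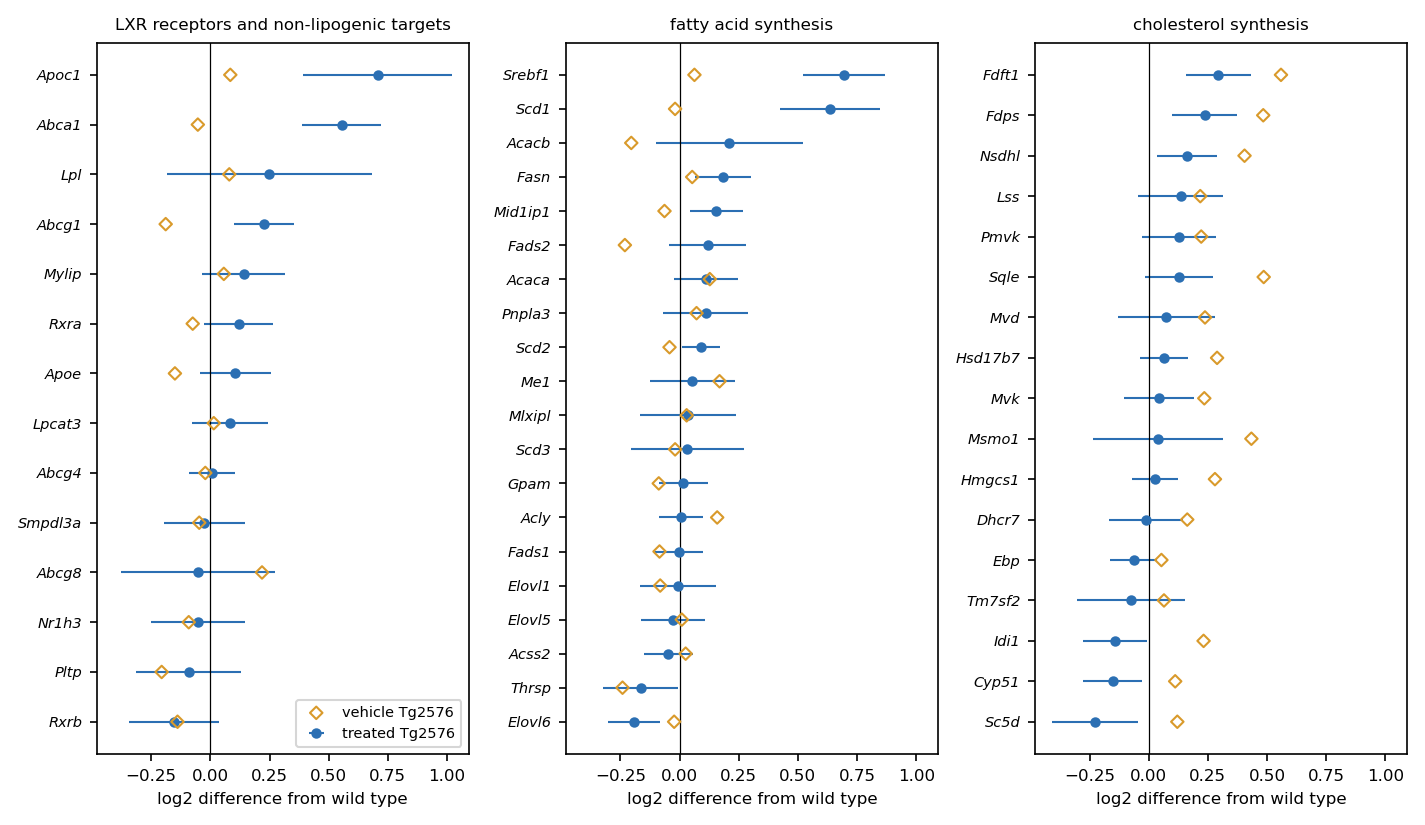
Log2 difference from wild type (x axis) of each tested gene of the receptor and target list, fatty acid synthesis and cholesterol synthesis: filled circles with 95% intervals are treated Tg2576, open diamonds vehicle Tg2576. Apoc1, Abca1, Srebf1 and Scd1 stand to the right in treated animals with vehicle near 0, whereas in cholesterol synthesis the vehicle diamonds lie to the right of the treated circles.

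Other lipid carriers moved in both directions. Apod, a lipocalin made by glia and by cells around vessels, rose furthest of the genes that passed. It ran from 902 through 1268 to 2041 in wild type and from 1639 through 2731 to 3263 in treated Tg2576, with 7 treated animals above all wild-type ones. The difference was 0.96 (SE 0.137, adjusted p = 0.000137), and treated lay 0.78 above vehicle Tg2576 (adjusted p = 0.0048), which read 1481 ± 287. Markers of meningeal fibroblasts, which can also make Apod, summed to 4174 to 8398 in wild type and 4105 to 7709 in treated Tg2576, 17 of 17 being above the filter. With choroid plexus and meningeal levels as covariates the Apod difference was 0.88 (adjusted p = 3.92e-05).

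Fabp7, the brain fatty acid-binding protein of radial glia and astrocytes, fell furthest. It ran from 476 through 558 to 665 in wild type and from 181 through 286 to 466 in treated Tg2576, with no overlap. The difference was -0.93 (SE 0.167, adjusted p = 0.00376). Vehicle Tg2576 spread across both, from 214 (replicate 6) through 537 to 757, with an SD of 170 against 58.7 in wild type. It differed from wild type by -0.28 (adjusted p = 0.533), and treated lay below it by -0.64 (adjusted p = 0.0899).

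Lcat, which esterifies cholesterol on lipoproteins, fell from 166 ± 24.4 to 125 ± 26.2 (-0.37, adjusted p = 0.0415), with 3 of 11 treated animals above the wild-type median and vehicle Tg2576 at -0.10 from wild type. That call held in 18 of 33 fits with 1 array left out and in 8 of 15 other alternatives. Of the 9 tested apolipoproteins and remodelling genes, 1 rose, 2 fell and 6 did not pass, with a median of 0.033. Over all genes, 0.141% rose and 0.219% fell, with a median of -0.0026. Clu, another abundant brain apolipoprotein, read 3809 ± 449 and 3831 ± 435. Pla2g7, which hydrolyses platelet-activating factor and oxidised phospholipids, fell by 0.29 in log2 units (adjusted p = 0.0476), a call kept in 9 of 33 such fits, with vehicle Tg2576 at -0.21.

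Tfrc, the transferrin receptor that takes up iron, rose without overlap. It ran from 408.5 through 508 to 540 in wild type, from 477 through 532 to 589 in vehicle Tg2576 and from 559 through 609 to 712 in treated Tg2576. The differences were 0.39 for treated Tg2576 against wild type (SE 0.054, adjusted p = 5.95e-05) and 0.15 for vehicle Tg2576 (adjusted p = 0.222). Treated lay 0.24 above vehicle (adjusted p = 0.0377). A second Tfrc probe set read 0.58 higher than wild type (adjusted p = 0.151 over all probe sets).

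Vwf, the clotting glycoprotein of endothelium, rose from 40.9 ± 19.6 to 71.7 ± 20.0 (0.66, adjusted p = 0.0161; vehicle Tg2576 0.30 above wild type), and only 2 treated animals exceeded the highest wild-type one. Endothelial markers as a group did not pass, 0 of 12, with a median of 0.11, beside 0.36% passing and a median of -0.0026 over all genes. Their summed signals were 3276 to 5154 in wild type and 3507 to 4519 in treated Tg2576. Among dim genes, Spaca6, a sperm protein, read 21.2 ± 7.01 and 40.3 ± 13.6 (0.58, adjusted p = 0.0137), with vehicle Tg2576 0.21 above wild type. Sbsn, suprabasin, read 108 ± 23.6 in wild type, 150.5 ± 45.1 in vehicle Tg2576 and 164 ± 31.8 in treated Tg2576 (0.54 against wild type, adjusted p = 0.0403). Its call held in 20 of 33 fits with 1 array left out.

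Of the remaining rises, Phka2, a regulatory subunit of phosphorylase kinase, rose by 0.36 (adjusted p = 0.00357) with 9 treated animals above all wild-type ones. Epg5, an autophagy tether, rose by 0.36 (adjusted p = 0.00411). Id1, an inhibitor of helix-loop-helix factors, rose by 0.37 (adjusted p = 0.0415), and Tti2, a chaperone partner of large kinases, by 0.39 (adjusted p = 0.0324). With 1 array left out, the Id1 call held in 17 of 33 fits and the Tti2 call in 25, and they were lost in 5 and 4 of 15 other alternatives. Vehicle Tg2576 lay 0.21 above wild type in Phka2, 0.27 in Epg5, 0.19 in Id1 and 0.19 in Tti2, none past the limit (adjusted p of 0.0766 or more). The other probe sets of Tti2 did not follow: 3 of 4 read lower than wild type, between -0.13 and -0.32. The smaller rises were Tmem203 (0.27), the ubiquitin ligase gene Rnf167 (0.22), the mitochondrial carrier gene Slc25a12 (0.18) and Cetn3, a centrin (0.17). Their calls held in 16, 19, 14 and 16 of 33 fits with 1 array left out, in that order, and in 8, 11, 6 and 8 of 15 other alternatives. Vehicle Tg2576 differed from wild type by 0.18, -0.038, 0.12 and 0.098. Slc25a12 had another probe set of opposite sign (-0.020).

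Dio2, Slc4a4, Hsd11b1, Ppp1r3c and Nrarp fell in treated Tg2576 and were lower in vehicle Tg2576 as well. Dio2, the deiodinase by which astrocytes activate thyroid hormone, ran from 257.1 through 313 to 470.4 in wild type, from 152 through 222 to 268 in vehicle Tg2576 and from 185 through 224 to 249.9 in treated Tg2576. No treated animal reached the lowest wild-type one. The differences from wild type were -0.56 in treated (SE 0.086, adjusted p = 0.000337) and -0.62 in vehicle animals (adjusted p = 8.98e-05), and treated and vehicle differed by 0.062 (95% interval -0.11 to 0.24, adjusted p = 0.844). Other Dio2 probe sets fell less, -0.14 and -0.078, neither past the limit. None of the other 8 thyroid hormone genes tested passed. Slco1c1, the thyroxine transporter, read 491 ± 145 and 379 ± 80.2 (adjusted p = 0.275).

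Slc4a4, a bicarbonate transporter of astrocytes, read 726 ± 44.6 in wild type, 601 ± 40.4 in vehicle Tg2576 and 590.5 ± 49.6 in treated Tg2576, with 9 treated animals below all wild-type ones. Its difference was -0.29 (adjusted p = 0.000346) and that of vehicle Tg2576 -0.27 (adjusted p = 0.00177). Dimmer Slc4a4 probe sets past the filter fell less in treated animals, by -0.073, -0.205 and -0.232, none past the limit. Hsd11b1, which regenerates active glucocorticoid, read 387 ± 44.8, 300.5 ± 49.1 and 305 ± 29.8 in that order, -0.32 in treated (adjusted p = 0.0355) and -0.35 in vehicle animals (adjusted p = 0.0128). It was the 1 gene of 13 glucocorticoid targets to pass, beside 0.36% of all genes. Its call held in 23 of 33 fits with 1 array left out and was lost with median centring (adjusted p = 0.0663), the exact rank-sum test (adjusted p = 0.0543) and the astrocyte, oligodendrocyte, dentate and CA covariates (-0.15, adjusted p = 0.832). Ppp1r3c, which brings phosphatase to glycogen, read 803 ± 49.0, 670.3 ± 95.04 and 675 ± 47.5 (-0.25 in treated, adjusted p = 0.0366). It was the 1 of 13 glycogen genes to pass, beside 0.36% of all genes, and its second probe set differed by -0.033. Ppp1r3g, a related subunit, read 72.3 ± 13.8, 44.3 ± 8.77 and 50.6 ± 14.1 and did not pass in treated animals (adjusted p = 0.0634).

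Nrarp, a target and feedback inhibitor of Notch signalling, ran from 226 through 269.8 to 348 in wild type and from 147 through 191 to 245 in treated Tg2576, with 9 treated animals below all wild-type ones. It differed by -0.46 in treated (adjusted p = 0.00179) and by -0.39 in vehicle animals (adjusted p = 0.0128). A dimmer Nrarp probe set fell less in treated animals (-0.24, adjusted p = 0.635 in limma over all probe sets).

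Astrocyte markers as a list leaned the same way, with 1 of 15 lower (Slc4a4), 0 higher and a median of -0.17, beside -0.0026 over all genes. Among abundant markers, Slc1a2, the main glutamate transporter, read 3155 ± 439 and 3096 ± 389, and Aldoc, aldolase C, 3759 ± 542 and 3752 ± 495. The summed astrocyte signal ran from 12260 to 16320 in wild type, 12150 to 14430 in vehicle Tg2576 and 12850 to 16010 in treated Tg2576. Among reactive astrocyte markers 0 of 8 tested passed. Gfap, the astrocyte filament protein, read 240.1 ± 49.1 and 300.0 ± 49.6 (0.31, adjusted p = 0.369), and Vim, vimentin, 242 ± 68.4 and 342 ± 74.5 (0.49, adjusted p = 0.123). The 11 reactive markers summed to 716 to 1130 in wild type, 938 to 1522 in vehicle Tg2576 and 929 to 1359 in treated Tg2576.

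With the astrocyte, oligodendrocyte, dentate granule and CA pyramidal marker levels as covariates, 13 genes passed, 10 higher and 3 lower. Fabp7 (-0.95, adjusted p = 0.353) and Nrarp (-0.44, adjusted p = 0.185) lost their calls with little change in size. Dio2 (-0.43, adjusted p = 0.395) and Slc4a4 (-0.22, adjusted p = 0.396) lost theirs with smaller differences. Slc4a4 is itself one of the astrocyte markers averaged in that covariate. It was therefore adjusted partly for its own signal, and nothing is drawn from its loss. Abca1, Srebf1, Scd1, Apod, Tfrc and Mtcp1 still passed there.

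**Figure D4:**
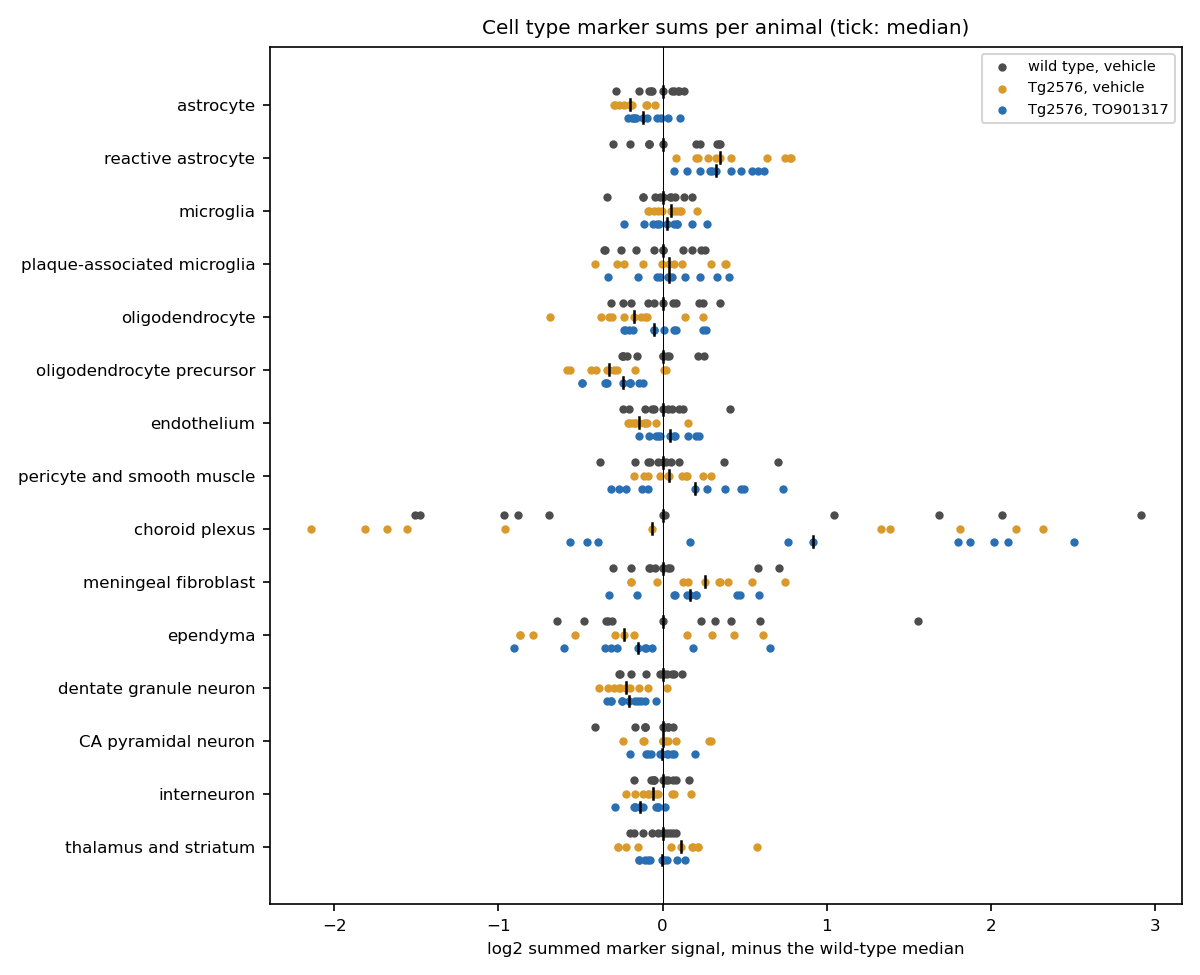
Log2 of the summed marker signal of each animal minus the wild-type median (x axis) for 15 cell type lists (rows), by group, with ticks at the medians. Choroid plexus sums spread widely within every group, the median dentate granule neuron and precursor sums are below wild type in both Tg2576 groups, and the median reactive astrocyte sum is above it in both.

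Mtcp1 had the smallest p of all genes. It ran from 109 through 126 to 154 in wild type, from 53.6 through 87.2 to 102 in vehicle Tg2576 and from 56.9 through 67.3 to 92.1 in treated Tg2576, so neither Tg2576 group overlapped wild type. The differences were -0.71 in treated (SE 0.078, adjusted p = 6.68e-07) and -0.51 in vehicle animals (adjusted p = 0.000313). This locus also holds Cmc4, which shares part of the transcript, so which of them was read is uncertain. A second probe set past the filter, 80.6 ± 7.07 in wild type and 74.1 ± 12.8 in treated Tg2576, differed by only -0.11 (adjusted p = 0.912).

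Npy, the interneuron peptide neuropeptide Y, ran from 622 through 753 to 861 in wild type and from 401 through 500.1 to 628 in treated Tg2576, with 10 of 11 treated animals below all wild-type ones. The difference was -0.55 (adjusted p = 0.00376). Vehicle Tg2576 read 661 ± 207, with 1 animal at 1248, and did not pass against wild type (-0.20, adjusted p = 0.429). Its median of 601.8 nonetheless lay below the lowest wild-type animal. Treated lay below vehicle by -0.35, which did not pass either (adjusted p = 0.134 in limma). Npy was the 1 of 16 neuropeptides to pass, beside 0.36% of all genes. Sst, somatostatin, read 1722 ± 252 and 1379 ± 180.1 (95% interval -0.48 to -0.15, adjusted p = 0.0728), with vehicle Tg2576 at 1459 ± 219. The GABA enzyme genes Gad1 and Gad2 read 0.038 and 0.11 from wild type (adjusted p = 0.877 and 0.773), and interneuron markers had a median of -0.016 with summed signals of 7380 to 9334 in wild type and 6820 to 8420 in treated Tg2576.

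Vgf, an activity-regulated secreted precursor, fell from 373 ± 40.4 to 290 ± 40.5 (-0.35, adjusted p = 0.0324), vehicle Tg2576 reading 353 ± 57.2. Crhbp, which binds corticotropin-releasing hormone, fell from 184 ± 21.6 to 143 ± 25.3 (-0.34, adjusted p = 0.0318; vehicle Tg2576 -0.22). Slc6a7, the proline transporter of glutamatergic terminals, fell from 491 ± 78.9 to 378 ± 44.4 (-0.36, adjusted p = 0.039; vehicle Tg2576 -0.24). Lrrtm4, a synaptic adhesion protein, fell by 0.35 in log2 units (adjusted p = 0.0446), in 14 of 33 fits with 1 array left out, and vehicle Tg2576 differed by -0.21.

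Genes of recent neuronal activity did not pass, 0 of 14, and 13 of 14 read below 0 with a median of -0.12. Over all genes, 48.7% read above 0. Fos read 103 ± 32.0 in wild type, 73.8 ± 28.3 in vehicle Tg2576 and 66.5 ± 7.33 in treated Tg2576 (-0.48, adjusted p = 0.131). It passed when only the 22 arrays were fitted (adjusted p = 0.0478). Arc read 219 ± 47.3 in wild type, 184 ± 55.8 in vehicle Tg2576 and 162 ± 36.2 in treated Tg2576 (adjusted p = 0.225). Dentate granule markers likewise did not pass, 0 of 11, with 10 of 11 below 0, a median of -0.16 and summed signals of 2970 to 3867 in wild type, 2732 to 3642 in vehicle Tg2576 and 2819 to 3466 in treated Tg2576. Tdo2, a granule cell enzyme of tryptophan breakdown, read 73.2 ± 15.4 in wild type, 37.3 ± 14.7 in vehicle Tg2576 and 52.1 ± 13.96 in treated Tg2576 (-0.40, adjusted p = 0.225). The part of these marker levels in the falls was not tested beyond the covariate fit.

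Gpr17, a receptor of oligodendrocyte precursors, fell from 157 ± 22.8 to 117 ± 24.0 (-0.39, adjusted p = 0.0476) and was the 1 of 8 precursor markers to pass, vehicle Tg2576 differing by -0.23. Its call held in 6 of 33 fits with 1 array left out. Precursor markers summed to 2719 to 3840 in wild type and 2294 to 2969 in treated Tg2576. Oligodendrocyte markers did not pass, 0 of 12, with 10 of 12 below 0 and a median of -0.066. Over all genes tested, 0.36% passed, 48.7% read above 0 and the median was -0.0026. Ermn, the member of smallest p, read 336 ± 60.3 in wild type and 276 ± 47.5 in treated Tg2576 (-0.27, adjusted p = 0.443 in limma), with vehicle Tg2576 at -0.35. Mbp, myelin basic protein, read 4606 ± 427 and 4582 ± 447.

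The remaining falls were small. Pot1a, of the telomere cap, fell by 0.34 in log2 units (adjusted p = 0.00187), Lap3, a leucine aminopeptidase, by 0.27 (adjusted p = 0.000804), and Tst, a sulfurtransferase, by 0.32 (adjusted p = 0.0366). Vehicle Tg2576 differed from wild type by -0.21, -0.069 and -0.13 in these. Adal, an adenosine deaminase-like enzyme, fell by 0.28 (adjusted p = 0.00403; vehicle Tg2576 -0.020), but its other probe sets read 0.12 and 0.25 higher. The same held for Smim7 (-0.20, others 0.057 and 0.12), whose call held in 6 of 33 fits with 1 array left out and 5 of 15 other alternatives, and for the splicing factor gene Srsf6 (-0.21, others 0.051 to 0.11). Vehicle Tg2576 differed from wild type by 0.037 in Smim7 and -0.068 in Srsf6. AW047730, Akt2, Zfp563, Dffa, Elmod2, Cox20 and Hnrnph1 completed the falls, between -0.33 and -0.20. Of the 20 genes past the limit with more than 1 probe set past the filter, 5 had one of opposite sign: Adal, Slc25a12, Smim7, Srsf6 and Tti2.

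**Figure D5:**
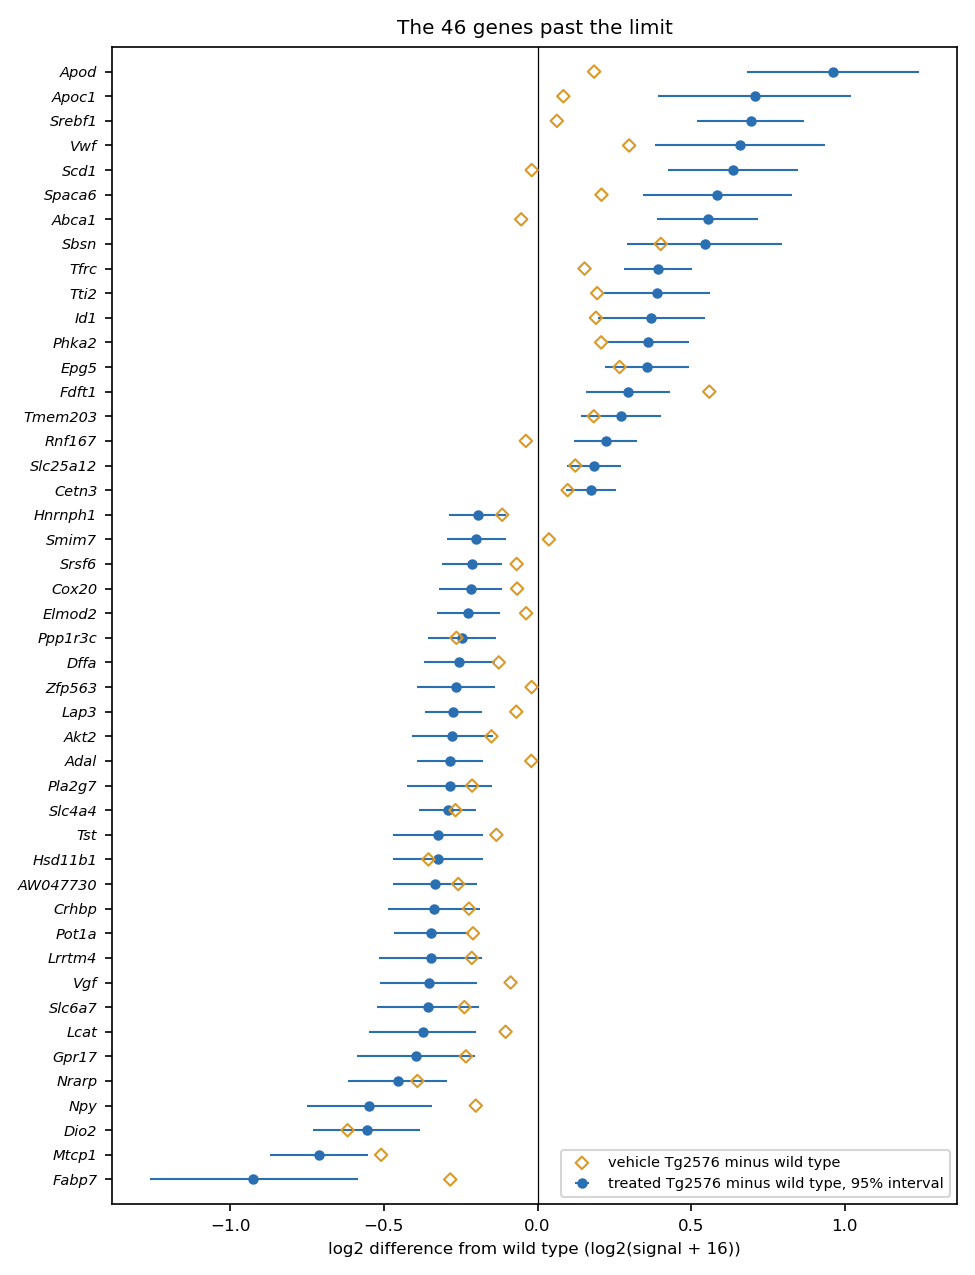
Log2 difference from wild type (x axis, log2(signal + 16)) of the 46 genes past the limit (rows, in order of size): filled circles with 95% intervals are treated Tg2576, open diamonds vehicle Tg2576. From Apod at 0.96 to Fabp7 at -0.93, the diamonds lie near 0 for Srebf1, Scd1 and Abca1 and beside the circles for Dio2, Slc4a4 and Hsd11b1.

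Over the whole table of 45037 probe sets without a filter, 29 passed (0.0644%), 14 higher (0.0311%) and 15 lower (0.0333%). Of these, 27 name 1 gene, covering 26 genes, and 20 of those genes are among the 46. The other 6 named genes were 5 lower and 1 higher. None of these 6 passed in the gene fit, which took only the brightest probe set of a gene above the filter. The values that follow are of the single probe set that passed here. Ptprz1, a receptor phosphatase of glial precursors, read 333 ± 35.7 and 244 ± 38.1 (-0.43, adjusted p = 0.00397), with vehicle Tg2576 at 282 ± 35.8. Il1rap, the accessory chain of the interleukin-1 receptor, read 148 ± 9.72 and 105 ± 15.9 (-0.45, adjusted p = 0.00557), with vehicle Tg2576 at 129 ± 26.6. Crem, a cAMP-responsive transcription factor, read 51.0 ± 6.501 and 34.7 ± 6.19 (-0.40, adjusted p = 0.0159), with vehicle Tg2576 at 44.2 ± 7.30.

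S100a16, a calcium-binding protein, read 360.1 ± 54.5 and 276 ± 31.6 (-0.36, adjusted p = 0.0397; vehicle Tg2576 302 ± 40.2). 2900052N01Rik read 95.5 ± 19.4 and 58.6 ± 14.97 (-0.58, adjusted p = 0.0159; vehicle Tg2576 65.4 ± 17.0). Gkn1 rose on a dim probe set, from 5.501 ± 4.82 in wild type to 15.5 ± 6.02, with vehicle Tg2576 at 16.5 ± 5.01.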

How the data were processed

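Total RNA of the right hippocampus of 33 mice was hybridised to 1 array each. The deposited intensity values (MAS5 signals, unlogged) were computed by the authors with MAS5, per the submitters' processing notes. No source used here gives its version, scan batches or a genome build. Of 45101 probe sets, 64 controls were left out, 34945 name 1 gene in the platform annotation, 932 several and 9160 none. Groups were taken from the labels.

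For genes, probe sets naming 1 gene and above the lowest 40% by mean (signal 13.9) were kept, the brightest per gene (12765 genes). A second fit took all 45037 probe sets. Both used log2(signal + 16) from all 33 arrays in limma 3.58.1 (R 4.3.3; lmFit, eBayes with trend and robust), 1 mean per group, Benjamini-Hochberg adjustment and a limit of 0.05. Contrasts with vehicle Tg2576 share arrays with the first and are given as values side by side. A MAS5 signal has no read depth; the number of arrays limits the precision. The fit was tested on simulated data.

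The gene lists, motifs and named genes were chosen with earlier results of these data known. Named were the 15 widest rises and the 15 widest falls past the limit, at most 4 genes past it from any list (or the list's gene of smallest p), genes without overlap and a preset group of lipid, APP and glial genes; others named, including all further genes past the limit and other list members, were chosen after their values were seen. Lists are described by counts and medians, with no test. Their counts past the limit stand beside 0.36% of all genes, 0.141% higher and 0.219% lower. Promoter windows are RefSeq's (GRCm38.p6). Alternatives covered the pseudocount, filter, scaling, probe set rule, arrays in the fit, variance model, covariates, replicate block, an exact rank-sum test and each array left out.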

Additional observations from a re-analysis of the deposited data

How the results depend on the processing

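Of the 46 genes past the limit, 43 kept their sign in all fits; with the probe sets of a gene averaged, Tti2 (-0.0412), Srsf6 (0.00437) and Adal (0.0265) changed sign. Apod, Srebf1, Scd1, Abca1, Tfrc and Mtcp1 were the 6 genes past the limit in every one of 15 alternatives and 33 fits with 1 array left out; 19 genes were so in all of the latter. The count of genes was 26 with no filter, 20 with median centring, 29 with no trend and no robust variance, 13 with the astrocyte, oligodendrocyte, dentate and CA covariates (76.9% of them higher, against 39.1%), and 26 by the exact rank-sum test. The count of probe sets was 29, and moved to 8 with those covariates and to 11 by the rank-sum test. With the replicate block, 65 genes and 33 probe sets passed, 39 and 25 of them shared with the fit without it; 1 of 11 wild-type arrays correlated best with its own number. Same-numbered wild-type and treated animals had a median correlation of deviations of 0.0824, against -0.00685 for different numbers. As 3 of 11 pairs exceeded 0.1, short of every pair, the numbers were not taken to pair animals. This rule would miss a weak tie between same-numbered arrays. Blocks of neighbouring numbers were not tested. Choroid plexus sums lay 1.04 to 2.91 log2 units above the wild-type median in wild-type replicates 8 to 11. In vehicle Tg2576 replicates 8 to 11 they lay 1.33 to 2.31 above it, and in treated replicates 9 to 11 1.80 to 2.02. Vehicle replicate 5 (2.15) and treated replicates 1 (2.51) and 4 (2.10) were high as well. With choroid plexus and meningeal levels as covariates, 46 genes passed, 35 of them shared with the fit without covariates. Leaving out 1 array gave 22 to 50 genes and 23 to 35 probe sets. The count of genes fell by over 1.5 times without wild-type replicate 1 (24), 3 (28), 6 (28), 9 (22), 10 (27) or 11 (30). It did so too without treated replicate 2 (25), 4 (28), 5 (24), 6 (23), 8 (28) or 9 (27). Leaving out vehicle Tg2576 replicates 3 and 4, chosen after seeing the data, gave 47 genes and 35 probe sets. The cause of these changes was not tested. Dim probe sets near the filter limit have the least signal over background.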

Other observations

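Several other gene groups showed no gene past the limit (limma, 0 passing in each). Their counts by direction stand beside 48.7% of all genes above wild type and were not tested. Of 15 unfolded protein response genes, 12 read below wild type in treated Tg2576, with a median of -0.16. Hspa5, the main chaperone of the endoplasmic reticulum, read 1246 ± 194 and 982 ± 146 (SD, n = 11 each; -0.34, adjusted p = 0.101 in limma), and Hsp90b1, its partner, 766 ± 86.6 and 685 ± 85.8. Of 13 interferon-response genes, 11 read above wild type, with a median of 0.11, and Irf7, the interferon regulatory factor, was dim (13.7 ± 8.44 and 19.9 ± 5.497). Of 17 clock genes, 12 read lower, with a median of -0.055. The 14 tested microglial markers had a median of -0.023, the 8 plaque-associated ones 0.042 and the 6 inflammatory mediators -0.0087. The 15 genes of the APP family and secretases had a median of 0.011, and the 12 amyloid-beta degradation genes -0.00072. Ttr, transthyretin of the choroid plexus, ran from 223 to 5968 in wild type and from 800.4 to 6988 in treated Tg2576, with a difference of 1.05 (95% interval -0.49 to 2.6).

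In drug transport, Slco1a4, a blood-brain barrier transporter, read 272 ± 47.8 in wild type, 238 ± 28.6 in vehicle Tg2576 and 325 ± 51.2 in treated Tg2576. Treated differed from wild type by 0.25 (adjusted p = 0.25 in limma) and from vehicle Tg2576 by 0.42 (adjusted p = 0.0124).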
